A study of Mus musculus with 8 samples.

Results

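Metallothioneins are small cysteine-rich proteins that bind zinc and copper, and zinc transporters move the metal across the membranes of the cell. The genes described here were 8 of the 54532 genes listed for RANKL-treated mouse intestinal organoids, taken by name: the metallothioneins Mt1 and Mt2, the transcription factor Mtf1, the ZnT genes Slc30a1, Slc30a2 and Slc30a10, and the ZIP genes Slc39a4 and Slc39a5. All 8 passed the filter on low counts, which left 9971 genes for the test.

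RNA of 4 control and 4 RANKL-treated organoid samples was sequenced from the 3′ end of the transcripts. A read thus comes from a transcript end whatever the length of the transcript, and PCR copies are counted as reads. Organoids are crypt-derived epithelial structures. Per the study's methods, mouse organoids were kept in Matrigel with EGF, NOGGIN, R-spondin, N2, B27 and N-acetylcysteine, which both groups share. The labels give the treatment as control or RANKL, the TNF-family ligand of the receptor RANK, and name no dose, time, strain, sex or age for these libraries. They do not say whether the 4 libraries of a group came from separate mice or cultures, so p-values measure the spread between these libraries, which may be technical.

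The libraries held 583663 to 7807298 counts, with a median of 3911808 in the control group and 1613410 in the RANKL group, and 1 count was worth 0.128 to 1.71 CPM, the unit used here for a gene's count scaled to the size of its library. The shallowest libraries were control replicate 4 and RANKL replicate 1. The 9 epithelial markers on the list, among them Epcam and Cdh1, summed to 7145 to 8291 CPM in control and 6858 to 7525 CPM in RANKL libraries. Of these 9, Cdx1 was called higher and Krt18, Krt19 and Cldn7 lower. Of 10 immune cell markers none was abundant enough to be tested, and they summed to 3.44 to 11.1 CPM in control and 4.82 to 14.5 CPM in RANKL libraries, with Cd3e and Cd79a at 0. The 7 M cell markers that were tested were all higher with RANKL, and the 9 on the list summed to 54.5 to 61.1 CPM in control and 1878 to 2141 CPM in RANKL libraries, while Gp2, the marker of mature M cells, was at 0. In bulk RNA, fewer cells of a type and less RNA per cell cannot be told apart.

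As background, free zinc in the cell is kept low. Metallothioneins buffer it, ZnT proteins of the Slc30 family move it out of the cytosol into vesicles or out of the cell, and ZIP proteins of the Slc39 family bring it in. MTF1, the product of Mtf1, is a zinc finger transcription factor that senses zinc and binds short metal response elements in the promoters of Mt1, Mt2 and Slc30a1. In the intestine, SLC39A4 takes up dietary zinc at the apical membrane of enterocytes, SLC39A5 lies on the basolateral side, SLC30A1 exports zinc at the plasma membrane and SLC30A2 loads the zinc-rich granules of Paneth cells.

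The promoters of Mt1, Mt2 and Slc30a1 are shown because these genes are the textbook targets of MTF1. The windows are RefSeq sequences on GRCm38.p6, each 280 bases long, with 250 bases before the annotated start and 30 from it, all on the plus strand. The Mt1 window is chr8:94178839-94179118, the Mt2 window is chr8:94172368-94172647 and the Slc30a1 window is chr1:191906531-191906810. Capitals mark the core of a metal response element, TGCACNC or TGCGCNC, which reads GNGTGCA or GNGCGCA where it lies on the minus strand.
Mt1: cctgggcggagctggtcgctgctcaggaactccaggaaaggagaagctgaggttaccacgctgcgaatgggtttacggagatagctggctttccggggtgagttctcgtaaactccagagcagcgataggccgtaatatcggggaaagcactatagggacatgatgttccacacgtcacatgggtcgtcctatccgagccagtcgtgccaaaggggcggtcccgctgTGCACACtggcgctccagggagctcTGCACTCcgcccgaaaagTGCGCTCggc
Mt2: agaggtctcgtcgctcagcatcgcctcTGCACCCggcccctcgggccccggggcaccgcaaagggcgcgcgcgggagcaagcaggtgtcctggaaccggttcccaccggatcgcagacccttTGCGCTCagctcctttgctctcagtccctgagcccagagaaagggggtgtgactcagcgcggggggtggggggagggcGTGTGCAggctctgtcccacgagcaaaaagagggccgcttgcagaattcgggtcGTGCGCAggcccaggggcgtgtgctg
Slc30a1: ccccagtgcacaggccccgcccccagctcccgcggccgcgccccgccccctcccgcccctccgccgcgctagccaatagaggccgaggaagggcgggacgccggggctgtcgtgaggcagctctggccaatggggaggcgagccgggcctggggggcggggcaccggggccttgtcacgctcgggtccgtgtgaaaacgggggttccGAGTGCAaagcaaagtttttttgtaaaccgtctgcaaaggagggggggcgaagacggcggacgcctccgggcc

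Positions here are relative to the RefSeq start. The Mt1 window held 3 cores, which began 23 bases before the start and 2 and 20 bases after it. The Mt2 window held 4, which began 223, 128 and 50 bases before the start and 4 bases after it, the last pair on the minus strand. The RefSeq start of Mt2 is chr8:94172618, while its GENCODE gene begins at chr8:94172664. The whole Mt2 window, which ends at chr8:94172647, thus lies before the GENCODE start. Slc30a1 had 1 core, 43 bases before the start on the minus strand. Of 32851 promoter windows of this length in the RefSeq table, 24.1% held at least 1 core on either strand, 1.73% held 3 or more and 0.405% held 4 or more. Of the other members with a window, Slc30a10 had 3 cores, of which 2 overlap on opposite strands, Slc30a2 had 2, Slc39a5 had 1 in the first of its 2 windows, and Mtf1 had 0. A match of letters is a description of the sequence and not a measured binding site.

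Mt1 and Mt2 lie side by side on chromosome 8 and were among the most abundant transcripts of the organoids. In the GENCODE M21 annotation (GRCm38), Mt2 (ENSMUSG00000031762) spans chr8:94172664-94173568 and Mt1 (ENSMUSG00000031765) spans chr8:94179082-94180327, both protein-coding and on the plus strand, with 6418 bases between their starts. Mt2 ranked 1 or 2 among all genes in every library. It was second to Gm42418, a gene that overlaps ribosomal RNA, in control replicates 2, 3 and 4. Mt1 ranked between 3 and 9. Mt1 and Mt2 held between 98.1% and 99.1% of the counts of the 8 members. No 50-base word of the last 500 bases of any member's transcripts was found in the annotated transcripts of another gene. Reads trimmed to fewer bases, reads with mismatches and copies outside the annotation were not examined.

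Mt1 rose with RANKL. It was at 5506, 5614, 4975 and 4939 CPM in the control libraries, in the order of replicates 1 to 4 as in all lists that follow, and at 6136, 6731, 6717 and 7320 CPM with RANKL. All RANKL libraries lay above all control libraries. The mean went from 5259 ± 351 to 6726 ± 483 CPM (SD, n = 4 each), which gave a fitted log2 fold change of 0.35 (SE 0.10, edgeR quasi-likelihood test, Benjamini-Hochberg adjusted p = 0.0055), or 1.28-fold with a 95% interval of 1.12 to 1.46. The call held under all 19 alternatives of the fit, with adjusted p from 0.00036 to 0.024.

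Mt2 was also higher in each RANKL library than in any control library, but did not pass the test. It was at 18299, 18410, 14873 and 16317 CPM in the control libraries and at 19888, 18846, 20731 and 21845 CPM in the RANKL libraries. Control replicate 3 was the lowest, and the gap between the highest control and the lowest RANKL library was small beside the spread within either group. The mean went from 16974 ± 1699 to 20327 ± 1272 CPM (SD, n = 4 each), which gave a fitted log2 fold change of 0.26 (SE 0.10, edgeR adjusted p = 0.056). Under the alternatives the adjusted p ranged from 0.0090 to 0.20 and fell under 0.05 in 7 of 19, so that the call of Mt2 depends on the setting. The plot of CPM by library shows Mt1 and Mt2 with the 6 other members.

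**Figure D1:**
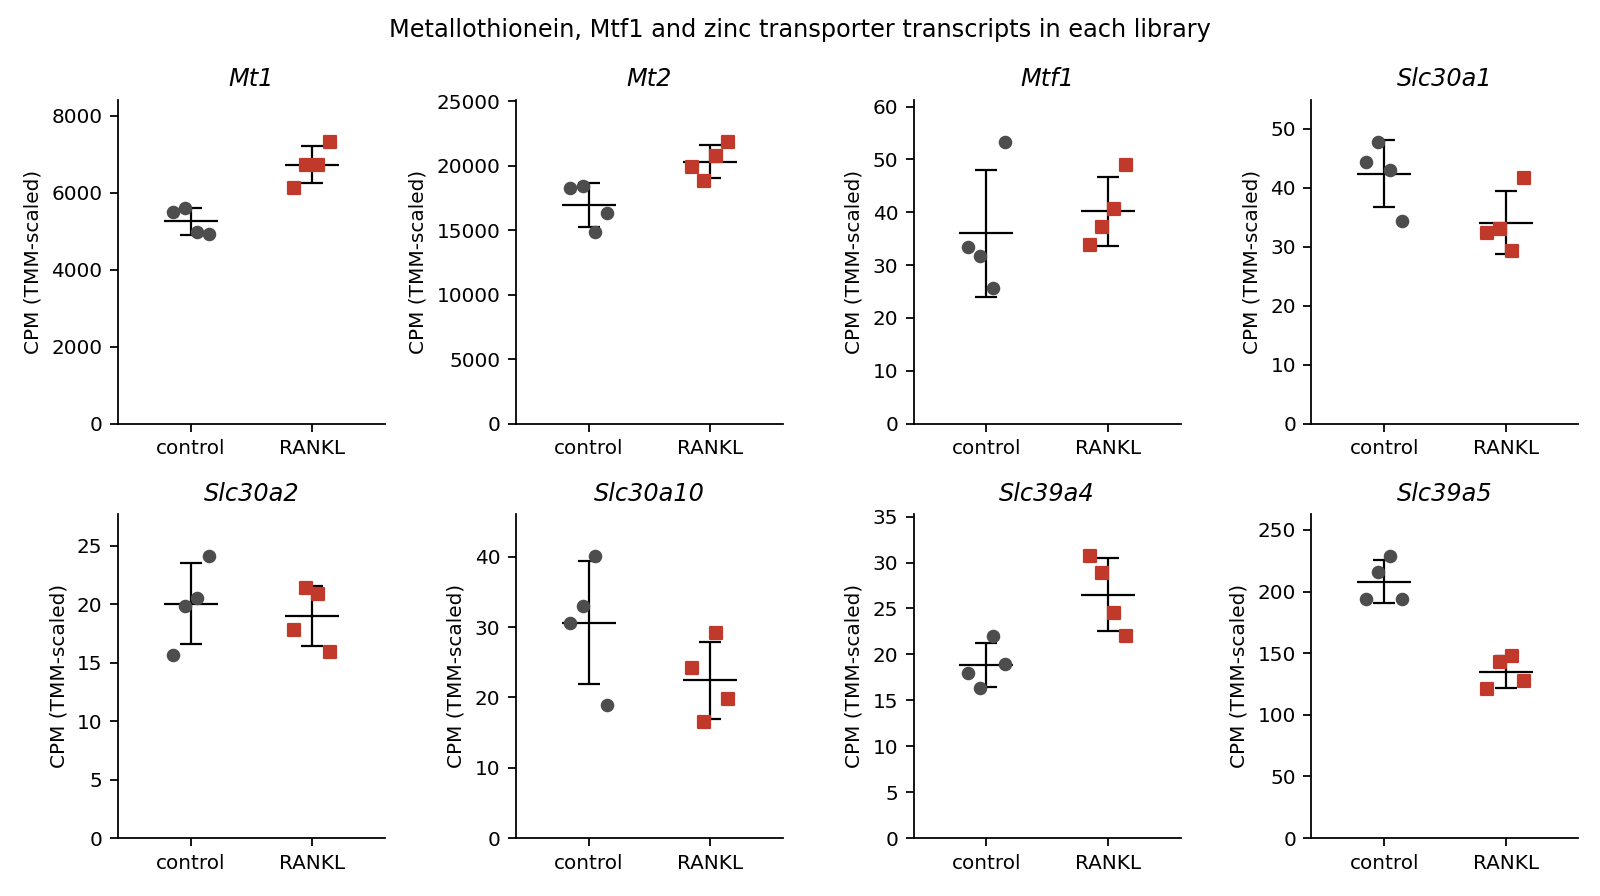
TMM-scaled CPM of the 8 members in each library, each panel with its own axis from 0. Circles are the 4 control and squares the 4 RANKL libraries in the order of replicates 1 to 4, and the bars give the mean and SD. The groups do not overlap for Mt1, Mt2 and Slc39a5 and overlap for the other 5.

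The share of all counts held by Mt1 and Mt2 was larger in the RANKL libraries. It was 2.39%, 2.41%, 1.91% and 2.12% in the control libraries, and with RANKL it was 2.63%, 2.58%, 2.74% and 2.97%. The groups did not overlap. The mean was 2.21% ± 0.240 in control and 2.73% ± 0.173 in RANKL libraries (SD, n = 4 each), a difference of 0.523 percentage points (exact two-sided permutation test, p = 0.0286, the smallest that 4 against 4 libraries can give). The exact binomial 95% interval of a library's share covers counting error only and treats reads as independent, although PCR copies are counted as reads. It was 2.08% to 2.15% in control replicate 4 and 2.59% to 2.67% in RANKL replicate 1, the 2 shallowest libraries, and narrower in the others. Counting error measured in this way was small beside the spread between libraries. Mt2 made up 1.69% ± 0.199 of control and 2.05% ± 0.134 of RANKL counts, and Mt1 0.522% ± 0.0427 and 0.679% ± 0.0516 (SD, n = 4 each).

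A share depends on what else is in the library. Gm42418 held 1.63% to 3.38% of the control counts and 1.07% to 1.53% of the RANKL counts, also without overlap. With it and AY036118, the other listed gene that overlaps ribosomal RNA, taken out of the total, the difference in the share of Mt1 and Mt2 was 0.499 percentage points. It was 0.482 to 0.529 over this and the other totals used and 0.423 to 0.589 when each library was left out in turn.

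The ratio of Mt1 to Mt2, which does not depend on the total, did not separate the groups. The log2 ratio of counts was -1.73, -1.71, -1.58 and -1.72 for the controls, and with RANKL it was -1.70, -1.49, -1.63 and -1.58. Control replicate 3 lay among the RANKL libraries, and RANKL replicate 1 lay near the other controls. The mean log2 ratio was -1.69 ± 0.072 in control and -1.60 ± 0.089 in RANKL libraries (SD, n = 4 each), a difference of 0.09 (exact two-sided permutation test, p = 0.171). Adjusted over these 2 measures, the share and the ratio, the permutation p was 0.0571 for the share and 0.171 for the ratio. A larger response of Mt1 than of Mt2 was therefore not shown, although only Mt1 passed the test across all genes.

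**Figure D2:**
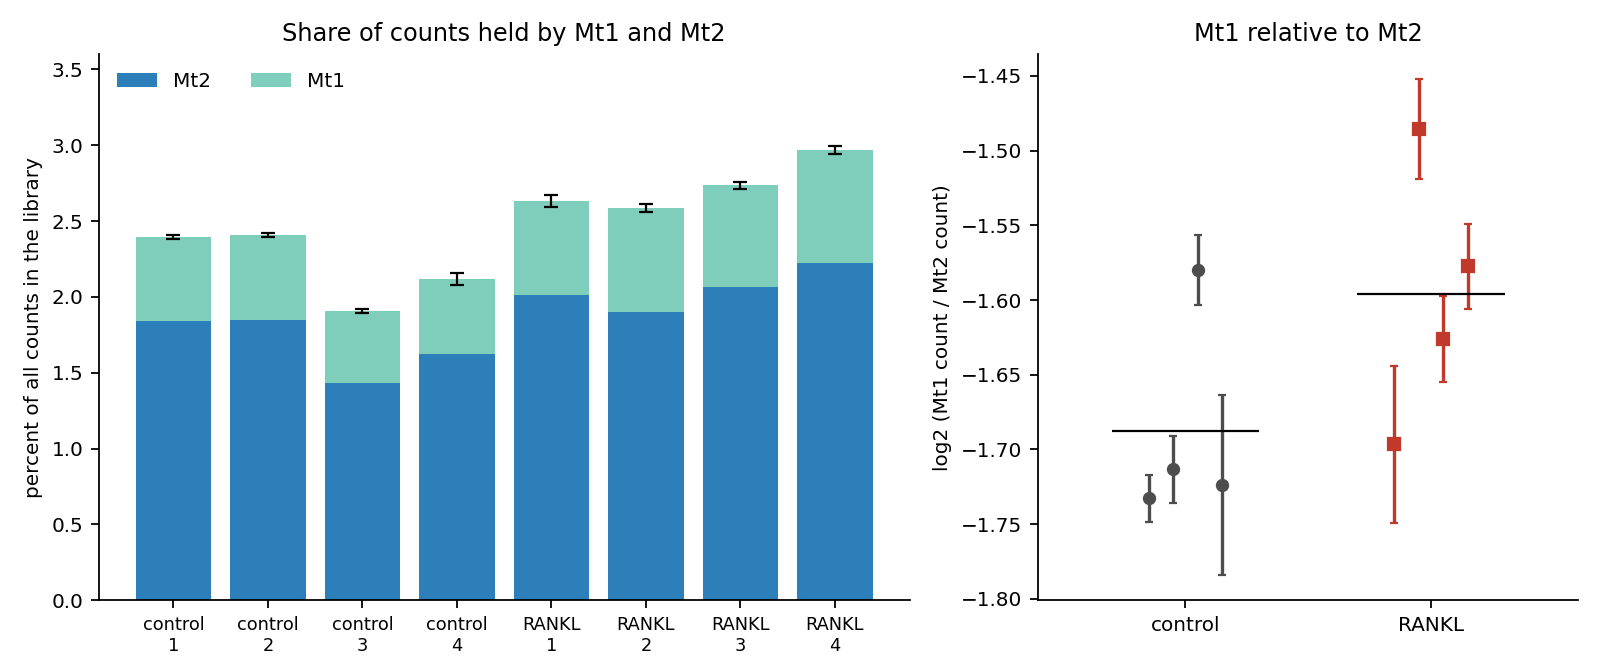
Left, the percent of all counts in each library held by Mt2 (lower, dark) and Mt1 (upper, light), with the exact binomial 95% interval of their sum. Right, the log2 ratio of the Mt1 to the Mt2 count in each library with its 95% counting interval, and the group mean as a line. The stacked bars of the RANKL libraries, at 2.58% to 2.97%, all exceed those of the controls, at 1.91% to 2.41%, while the ratios overlap.

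Mtf1 (ENSMUSG00000028890, chr4:124802104-124849800, plus strand) was a low-abundance transcript. It was at 33.5, 31.7, 25.6 and 53.3 CPM in the control libraries and at 33.9, 37.2, 40.7 and 48.9 CPM in the RANKL libraries. The highest value of all, in control replicate 4, rested on 31 counts. The means were 36.0 ± 12.0 and 40.2 ± 6.44 CPM (SD, n = 4 each), and the fitted log2 fold change, which gives deep libraries more weight, was 0.34 (95% interval -0.02 to 0.69, edgeR adjusted p = 0.17).

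Among the ZnT genes of the members, Slc30a10 was called lower, and Slc30a1 and Slc30a2 did not pass the test. Slc30a1 (ENSMUSG00000037434, chr1:191906767-191913247, plus strand), the exporter at the plasma membrane, was at 44.4, 47.8, 43.1 and 34.4 CPM in control and at 32.3, 33.0, 29.2 and 41.7 CPM in RANKL libraries. RANKL replicate 4 and control replicate 4 overlapped the other group. The means were 42.4 ± 5.70 and 34.1 ± 5.38 CPM (SD, n = 4 each), and the log2 fold change was -0.36 (SE 0.16, edgeR adjusted p = 0.094). Without RANKL replicate 4 the log2 fold change was -0.49 and the adjusted p was 0.048. The fitted change of Slc30a1, which did not pass the test, was below 0 and that of Mt1 above 0. The promoter window of Mt1 held 3 metal response element cores and that of Slc30a1 held 1. Of all promoter windows of this length, 1.73% held 3 or more and 24.1% held at least 1. Whether the element had a part in either change was not tested.

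Slc30a2 (ENSMUSG00000028836, chr4:134343181-134354484, plus strand), the vesicular transporter of Paneth cells, was at 15.7, 19.9, 20.5 and 24.1 CPM in control and at 17.8, 21.3, 20.9 and 15.9 CPM in RANKL libraries. The groups overlapped over nearly their whole range. The log2 fold change was 0.02 with a 95% interval of -0.40 to 0.43 (edgeR adjusted p = 0.97). At 11 to 123 counts per library, changes within this interval were not excluded. The 14 Paneth cell markers include defensin genes, whose near-identical copies can share reads. The 14 markers summed to 5891 to 7488 CPM in control and 5833 to 7021 CPM in RANKL libraries. Of 13 tested, 2 were higher and 1 lower.

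Slc30a10 (ENSMUSG00000026614, chr1:185454848-185468762, plus strand), known mainly as an exporter of manganese, was at 30.6, 33.0, 40.0 and 18.9 CPM in control and at 24.2, 16.5, 29.2 and 19.8 CPM in RANKL libraries. Control replicate 4, at 11 counts, lay among the RANKL libraries. The mean went from 30.6 ± 8.78 to 22.4 ± 5.51 CPM (SD, n = 4 each), which gave a fitted log2 fold change of -0.55 (SE 0.20, edgeR adjusted p = 0.039). This call was weak. It was lost with DESeq2 (adjusted p = 0.10), with the library total as a covariate (log2 fold change -0.35, adjusted p = 0.39) and without any 1 of control replicates 2 and 3 and RANKL replicates 1, 2 and 4, and the permutation p over the 8 CPM values was 0.171 (exact, two-sided).

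Of the importers, Slc39a5 passed the test and Slc39a4 did not. Slc39a5 (ENSMUSG00000039878, chr10:128395931-128401229, minus strand), the basolateral ZIP, fell with RANKL. It was at 194, 216, 229 and 194 CPM in control and at 121, 142, 148 and 127 CPM in RANKL libraries. All RANKL libraries lay below all control libraries. The mean went from 208 ± 17.1 to 135 ± 12.6 CPM (SD, n = 4 each), which gave a fitted log2 fold change of -0.62 (SE 0.11, edgeR adjusted p = 4.3e-05), or 0.650 of the control level with a 95% interval of 0.559 to 0.756. The call held under all 19 alternatives of the fit, with adjusted p from 7.8e-07 to 0.0013.

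Slc39a4 (ENSMUSG00000063354, chr15:76612383-76617384, minus strand), the apical ZIP whose human counterpart is lost in acrodermatitis enteropathica, was at 18.0, 16.4, 22.0 and 18.9 CPM in control and at 30.7, 28.9, 24.5 and 22.0 CPM in RANKL libraries. Only control replicate 3 and RANKL replicate 4 overlapped. The means were 18.8 ± 2.39 and 26.5 ± 3.99 CPM (SD, n = 4 each), and the log2 fold change was 0.46 (SE 0.19, edgeR adjusted p = 0.071), which did not pass. Without control replicate 3 the log2 fold change was 0.55 and the adjusted p was 0.032. SLC39A4, SLC39A5 and SLC30A10 are made in enterocytes, and the 12 enterocyte markers summed to 12705 to 16631 CPM in control and 11820 to 13266 CPM in RANKL libraries, and of the 12 tested 2 were called higher, Apoa1 and Apoc3, and 1 lower. The part of the markers in the transporters' values was not tested.

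Of the 8 members 3 passed the test, against 25.9% of all genes tested. Of these 1 was higher (Mt1), against 13.6% of all genes, and 2 were lower (Slc30a10 and Slc39a5), against 12.4%. The groups did not overlap for 3 members (Mt1, Mt2 and Slc39a5), against 24.6% of all genes tested. With so few members these counts do not set the members apart from other genes. The median log2 fold change of the members was 0.14, beside 0.00 for all genes tested.

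The rest of the metallothionein, ZnT and ZIP families comprised 21 further genes, of which 13 were tested. Of these 2 were higher and 1 lower, or 23.1%, near the share of all genes, and their median log2 fold change was -0.00. The groups did not overlap for 5 of the 13, against 24.6% of all genes tested. Slc39a1, a widely expressed ZIP of the plasma membrane, was at 75.1, 96.6, 63.4 and 87.7 CPM in control and at 152, 150.0, 126 and 185 CPM in RANKL libraries. All RANKL libraries were above all controls, and its log2 fold change of 0.95 (SE 0.13, edgeR adjusted p = 2.0e-06) was the largest in size among the tested genes of the families. Slc39a11, a ZIP of internal membranes, was at 286, 299, 243 and 272 CPM in control and at 387, 412, 406 and 428 CPM in RANKL libraries. It too rose without overlap, with a log2 fold change of 0.57 (SE 0.10, edgeR adjusted p = 3.4e-05). Slc39a1 and Slc39a11 held their calls under all 19 alternatives of the fit.

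The 10 other tested ZIP and ZnT genes did not pass. Slc30a4, a ZnT of vesicles, had a log2 fold change of -0.37 (95% interval -0.68 to -0.06, edgeR adjusted p = 0.075), and its groups did not overlap. Slc30a7, a ZnT of the secretory pathway, had a log2 fold change of 0.56 (95% interval 0.09 to 1.04, edgeR adjusted p = 0.071) and Slc39a6 one of -0.48 (95% interval -0.92 to -0.04, edgeR adjusted p = 0.10). The groups of Slc39a6 did not overlap, and those of Slc30a7 did. Slc39a14 and Slc39a8, which carry iron and manganese as well as zinc, had log2 fold changes of -0.05 and -0.00, with 95% intervals of -0.39 to 0.28 and -0.34 to 0.34. Slc39a7 was listed at 7 counts over the 8 libraries, and 82.7% of the 50-base words at its transcript ends are shared with Gm20427, a gene model that overlaps it on the same strand, so its level cannot be read from these counts.

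**Figure D3:**
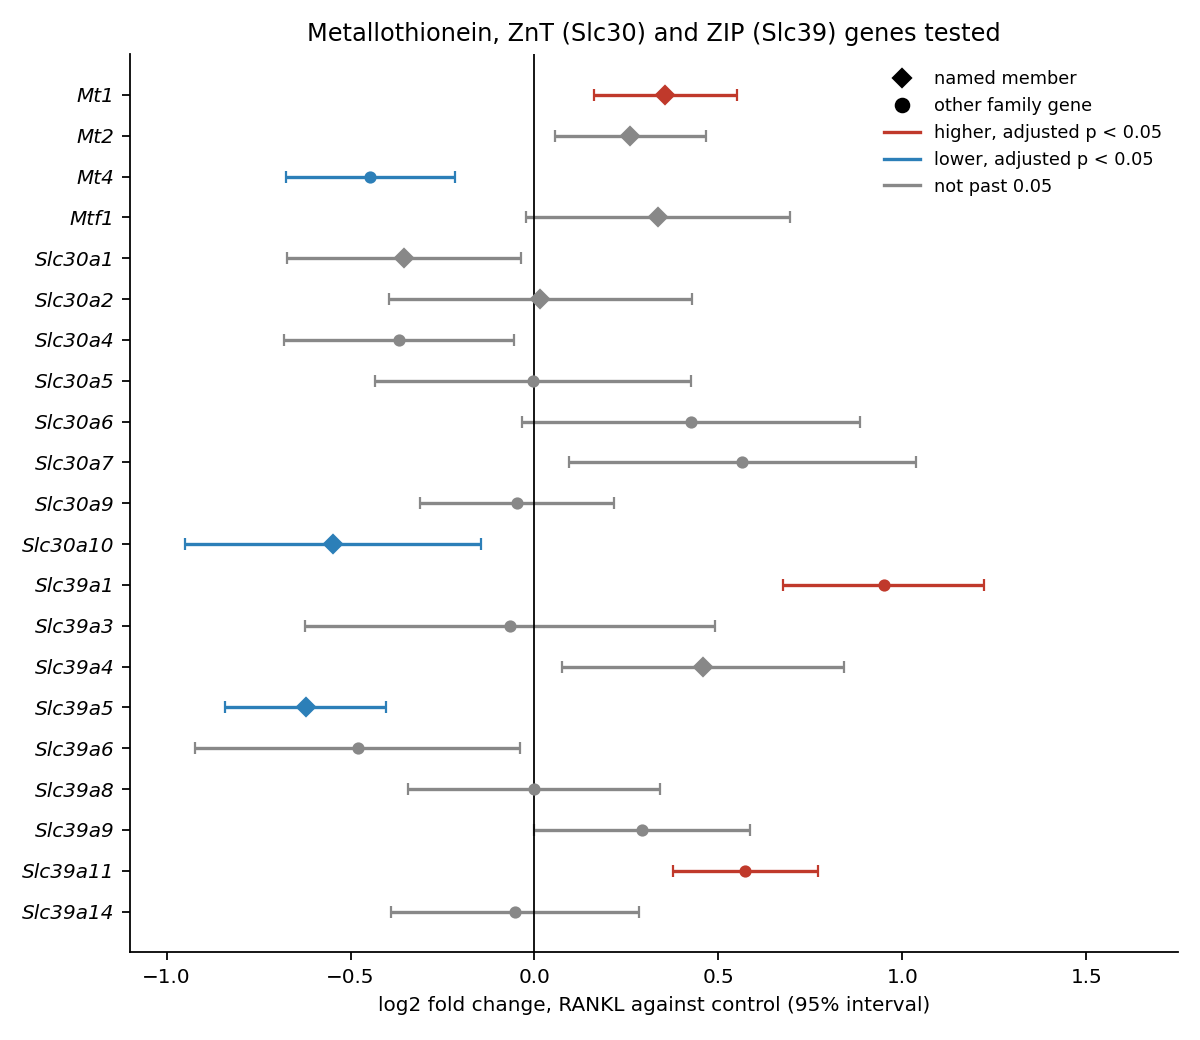
Log2 fold change of RANKL against control with its 95% interval for the tested genes of the metallothionein, ZnT and ZIP families and Mtf1. Diamonds are the 8 members and circles the other genes. Of all genes drawn, Mt1, Slc39a1 and Slc39a11 passed the adjusted threshold as higher and Mt4, Slc30a10 and Slc39a5 as lower.

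Mt4, the metallothionein known from stratified squamous epithelium, moved in the direction opposite to Mt1. It was at 217, 183, 219 and 242 CPM in control and at 168, 162, 129 and 169 CPM in RANKL libraries. The groups did not overlap, and the mean went from 215 ± 24.6 to 157 ± 18.8 CPM (SD, n = 4 each). The fitted log2 fold change was -0.45 (SE 0.11, edgeR adjusted p = 0.0034), and the call held under all 19 alternatives of the fit. Mt3, the brain metallothionein, had 3 counts in all 8 libraries together and was not tested.

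The 4 metallothionein genes form 1 cluster on chromosome 8, with 33633 bases between the end of Mt4 and the start of Mt2. Of 18 annotated genes that start within 200 kb of Mt1 or Mt2, 7 were tested, among them Nudt21, Ogfod1, Mt4 and Nup93 besides Mt1 and Mt2. Of these neighbours edgeR called Mt4, as lower, and the intervals of Nudt21 and Nup93 spanned 0. Nup93, a nuclear pore gene and the nearest tested gene downstream at 35.5 kb, had a log2 fold change of -0.03 (95% interval -0.28 to 0.22). Ogfod1 had -0.53 (95% interval -0.99 to -0.06, edgeR adjusted p = 0.091).

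**Figure D4:**
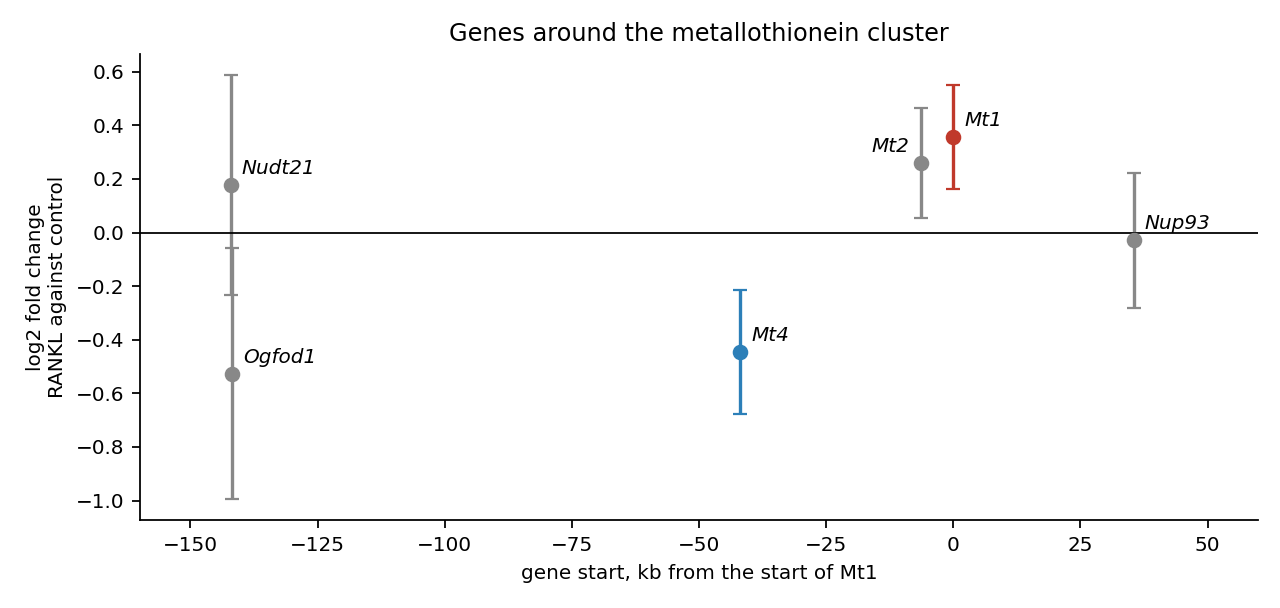
Log2 fold change of RANKL against control with its 95% interval for Mt1, Mt2 and the tested neighbours Nudt21, Ogfod1, Mt4 and Nup93, placed by the distance of the gene start from the start of Mt1 in kb. Nudt21 and Ogfod1 start next to each other. Mt1 passed as higher and Mt4, 41.9 kb before it, as lower.

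Genes of related functions were counted from lists written by name, and the lists were not tested as sets. Of all genes tested, 25.9% were called. The share was 42.9% for the MTF1 targets and 37.5% for the NRF2 and glutathione list, and Gclc is on both. It was 33.3% for iron handling, 18.2% for copper handling and 16.7% for glucocorticoid-induced genes. Of 7 tested genes reported as targets of MTF1 other than the members, 2 were higher and 1 lower, with a median log2 fold change of -0.25. Gclc, the catalytic subunit of the enzyme that starts glutathione synthesis, had a log2 fold change of 0.63 (SE 0.10, edgeR adjusted p = 1.3e-05), Csrp1, a LIM domain protein, one of 0.85 (SE 0.11, adjusted p = 6.7e-07) and the potassium channel gene Kcnk1 one of -0.94 (SE 0.17, adjusted p = 9.4e-05).

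Metallothioneins also respond to oxidative stress and to glucocorticoids. Of 16 genes of the NRF2 and glutathione list, all tested, 4 were higher (Gclc, Srxn1, Gsr and Me1) and 2 lower (Gclm and Gss), and the median was 0.10. Srxn1, which reduces oxidised peroxiredoxins, went from 363 ± 49.6 to 733 ± 70.4 CPM (SD, n = 4 each), with a log2 fold change of 1.00 (SE 0.10, edgeR adjusted p = 7.7e-09), while Gclm, the modifier subunit of the same enzyme as Gclc, had a log2 fold change of -0.64 (SE 0.11, adjusted p = 7.4e-05). Of 6 tested glucocorticoid-induced genes 1 was higher, Klf9, from 6.51 ± 2.45 to 13.4 ± 3.37 CPM (SD, n = 4 each, edgeR adjusted p = 0.0068), and the median was -0.02. The call of Klf9 was lost with the library total as covariate (adjusted p = 0.13).

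Of 11 copper handling genes tested, Heph, which oxidises iron at the basolateral membrane of enterocytes with copper as cofactor, was higher and Sod1, the copper and zinc superoxide dismutase, lower. The log2 fold change was 0.57 for Heph (SE 0.14, edgeR adjusted p = 0.0027) and -0.25 for Sod1 (SE 0.09, adjusted p = 0.041), and the call of Sod1 held in 9 of 19 alternatives. Of 9 iron handling genes Pcbp1 was higher and Tfrc, the transferrin receptor, and Aco1 were lower. Tfrc went from 103 ± 10.3 to 67.1 ± 7.20 CPM (SD, n = 4 each, edgeR adjusted p = 0.00041). The call of Aco1 (-0.45, adjusted p = 0.013) held in 16 of 19 alternatives and that of Pcbp1 (0.31, adjusted p = 0.033) in 11 of 19. The medians of the copper and iron lists were 0.10 and -0.01.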

How the data were processed

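Total RNA of 8 organoid samples was made into QuantSeq 3′ libraries and sequenced as single reads of 50 bases. Per the labels and the study's methods, the authors trimmed and filtered the reads, aligned them to mm10 with STAR and deposited raw, unscaled counts per gene of Ensembl 94 from featureCounts, with strand. PCR copies are counted as reads. Symbols and positions came from GENCODE M21, which matched 54495 of 54532 genes, and the 37 others held 0.0067% of the counts. RefSeq promoter windows were found for 7 members.

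From the counts, CPM were computed on library totals scaled by TMM. Genes were filtered with filterByExpr and tested with edgeR 4.0.16 (glmQLFit, glmQLFTest, R 4.3.3), RANKL against control, without covariates, and p-values were adjusted over the 9971 tested genes (Benjamini-Hochberg, threshold 0.05). Intervals are at 95%. Shares and the Mt1 to Mt2 ratio were compared by exact permutation over 70 assignments (scipy 1.17.1). Scripts were tested on simulated counts.

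The members and lists were chosen with earlier results of these data known. Genes named in the text are the 8 members, Mt3 and Mt4, other Slc30 and Slc39 genes past the threshold, up to 3 genes past it per other list with the largest log2 fold change at 5 CPM or more, the tested neighbours, and the 3 genes most like Mt1 and Mt2. Slc30a4, Slc30a7, Slc39a6, Slc39a7, Slc39a8, Slc39a14, the marker genes and genes named only because a count was 5 or fewer were added after their values were seen. The 19 alternatives of the fit were DESeq2 1.42.0, limma-voom (limma 3.58.1), other scalings and filters, the library total as covariate and the replicate number as a block. They also included each library left out and the 2 shallowest libraries left out. Other thresholds, an adjusted p of 0.01 and a fold of at least 2, were applied to the main fit and are not among the 19. Leaving out the 2 shallowest libraries was chosen after seeing the data. The labels do not pair the replicate numbers. Deviations of libraries of the same number were weakly correlated at most (4 correlations from -0.033 to 0.099), which cannot exclude a pairing. Some genes are not reported here.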

Additional observations from a re-analysis of the deposited data

Results flagged for a closer look

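Of 52 groups of 4 libraries examined, 2 held a library that stood apart from the other 3 by Dixon's criterion, against 2.6 by chance at 1 in 20. Mt4 in RANKL replicate 3 was at 129.3 CPM, with the nearest RANKL library at 162.4 CPM. The log2 ratio of Mt1 to Mt2 in control replicate 3 was -1.58, with the nearest control at -1.713.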

How the results depend on the processing

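Mt1 and Slc39a5 kept their direction and their side of the threshold under all 19 alternatives of the fit. Mt2 passed with DESeq2 (log2 fold change 0.26, adjusted p = 0.024), limma-voom (0.26, adjusted p = 0.0090), library totals alone (0.28, adjusted p = 0.037), at least 10 counts in every library (0.28, adjusted p = 0.041) and the replicate block (0.26, adjusted p = 0.045), and without control replicate 1 or 2 (0.30, adjusted p = 0.034 for each). Mtf1 passed without the 2 shallowest libraries (0.48, adjusted p = 0.046), a setting chosen after seeing the data. Slc30a10 lost its call with DESeq2 (-0.53, adjusted p = 0.10) and with the library total as covariate (-0.35, adjusted p = 0.39). Slc30a2, near 0 throughout, changed sign with DESeq2 (-0.0031), no filter on low counts (-0.027), the replicate block (-0.025), the covariate (-0.19) and without control replicate 1 (-0.12), RANKL replicate 2 (-0.05) or RANKL replicate 3 (-0.05). The causes were not tested.

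Over all genes 2587 were called, 1636 at an adjusted p of 0.01 and 577 with a fold of at least 2. That fold left 0 of the 8 members, 0 of the other metallothionein, ZnT and ZIP genes and 1 of the other lists, since none of the members' changes reached it. With a library left out, the calls numbered 1853 to 2601 over all genes, 2 to 4 among the members, 3 to 5 in the other family genes and 11 to 16 in the other lists. The log2 fold changes then ran from 0.31 to 0.40 (Mt1), 0.20 to 0.30 (Mt2), 0.22 to 0.43 (Mtf1), -0.49 to -0.26 (Slc30a1), -0.12 to 0.11 (Slc30a2), -0.75 to -0.42 (Slc30a10), 0.39 to 0.55 (Slc39a4) and -0.67 to -0.57 (Slc39a5). The share difference ran from 0.423 to 0.589 percentage points and the ratio difference from 0.05 to 0.13. The replicate block left 2610 calls and gave an exact permutation p of 0.125 for the share, the smallest that 4 pairs allow. The labels do not pair the numbers. Of 4 control replicates, 2 correlated best with the RANKL library of their own number, which neither shows nor excludes a pairing. Depth limits the rare transcripts: Slc30a2, Slc30a10 and Slc39a4 each had as few as 11 counts in a library.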

Other observations

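After subtraction of the group means, Mt1 and Mt2 varied together across the 8 libraries with a Pearson r of 0.75 in log2 CPM. Among 3916 other genes at a mean of at least 50 CPM, Mt2 ranked 189 in likeness to Mt1, and Mt1 ranked 225 in likeness to Mt2. The highest were Ccdc85c (r = 0.97), Fam91a1 (0.96) and Gpbp1 (0.96), and those most like Mt2 were Rnf14 (0.98), Cpsf2 (0.96) and Hes1 (0.96). All these values share the same 8 libraries and their depths and are a description only.

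Of 8 stem cell markers tested, Lgr5, Smoc2, Axin2 and Ephb2 were lower with RANKL and Ascl2 was higher, and their sum was 2072 to 2513 CPM in control and 1789 to 1929 CPM in RANKL libraries. Of 8 goblet cell markers Spdef was lower, and of 10 enteroendocrine markers Cck, Gip and Sct were higher (edgeR adjusted p under 0.05 in each case). For comparison, 25.9% of all genes tested were called. Of the mesenchymal and endothelial markers Pdgfrb was higher, with means of 3.87 CPM without and 19.0 CPM with RANKL, while Dcn, Cdh5 and Kdr were at 0. Tuft cell, pancreatic acinar and neuronal or glial markers gave 1, 2 and 2 tested genes, and none passed at the adjusted threshold.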
